A study of Homo sapiens with 6 samples.

Results

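The genes described here lie next to each other at the end of the short arm of human chromosome 9, in bands 9p24 to 9p22, and include the immune checkpoint ligands CD274 and PDCD1LG2 and the kinase JAK2. The list held 39 genes, from SMARCA2 on the side of the arm's end to BNC2, out of 18417 genes with an array row of their own. All 39 had a row, 1 of them (KIAA2026) under its newer name BRD10, and the order of the list was that of the RefSeq annotation for 39 of 39. PSIP1 had 2 rows, of which the brighter is given, and no member was read by a row shared with another gene. The genes were picked by their position with earlier results of these same arrays known, so every comparison of the members below describes them and is no independent test of the region.

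MDA-MB-231, a human cell line derived from a triple-negative breast tumour, was profiled in 6 cultures on Affymetrix Human Gene 1.0 ST arrays. Of these, 2 clones carried shRNA 159 and 2 carried shRNA 162, both short hairpin RNAs against TIP-1 (gene TAX1BP3), and 2 clones carried a control shRNA. All were grown in RPMI medium with serum and reseeded the day before their RNA was taken. Each array held RNA of 1 independent clone, so the replicates are clones (n = 2 per group), a difference between groups cannot be told apart from one between the few clones chosen, and the hairpins lowered TIP-1 without removing it.

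The TAX1BP3 row, also annotated to a readthrough transcript, read 10.40 and 10.40 in the shRNA 159 clones, 9.85 and 10.01 in the shRNA 162 clones and 11.65 and 11.56 in the control clones (log2 signal). Both hairpins lay below control, by -1.20 and -1.67 on the log2 scale (SE 0.08 each, limma adjusted p = 0.00034 and 4.4e-05). Of 8 markers of this mesenchymal-like line, 7 were above the upper quartile of all tested rows, while 0 of 8 luminal and epithelial markers were. No marker of the line passed in any comparison (limma; 1 higher with shRNA 159 minus control and 1 higher between the hairpins at an unadjusted p under 0.05).

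CD274 encodes PD-L1 and PDCD1LG2 encodes PD-L2, the ligands through which tumour and myeloid cells hold back T cells by way of the receptor PD-1. JAK2 is a tyrosine kinase bound to cytokine receptors, including that of interferon gamma, and its STAT partners are known to raise PD-L1 transcription. These 3 genes are known to be gained together in some lymphomas and in some triple-negative breast cancers, together with neighbours that serve housekeeping tasks. The same stretch holds a cluster of relaxin peptides, melanocyte genes and developmental genes that many cell types do not use.

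Between shRNA 159 and control clones, 21 of the 39 members were higher by 0.4 or more on the log2 scale, which is 1.33-fold to 2.08-fold, and 0 were lower by that much. Across all 21214 tested rows 1.99% were higher by this margin. The members' median change was 0.44, beside -0.01 for all tested rows. In the limma fit 19 members passed as higher at an adjusted p under 0.05, where 1.69% of all rows did, and 0 passed as lower (0.839% of all rows; 1 member at an unadjusted p under 0.05), with 2.53% of all rows passing in either direction. The clones of the groups did not overlap in 27 members higher and 3 lower with shRNA 159, beside 20.7% and 21.7% of all rows. Without control clone 2 the count of higher members was 9. The highest changes were those of CD274, GLIS3 and PSIP1, and nothing is read from the counts because the region was chosen with this contrast known.

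**Figure D1:**
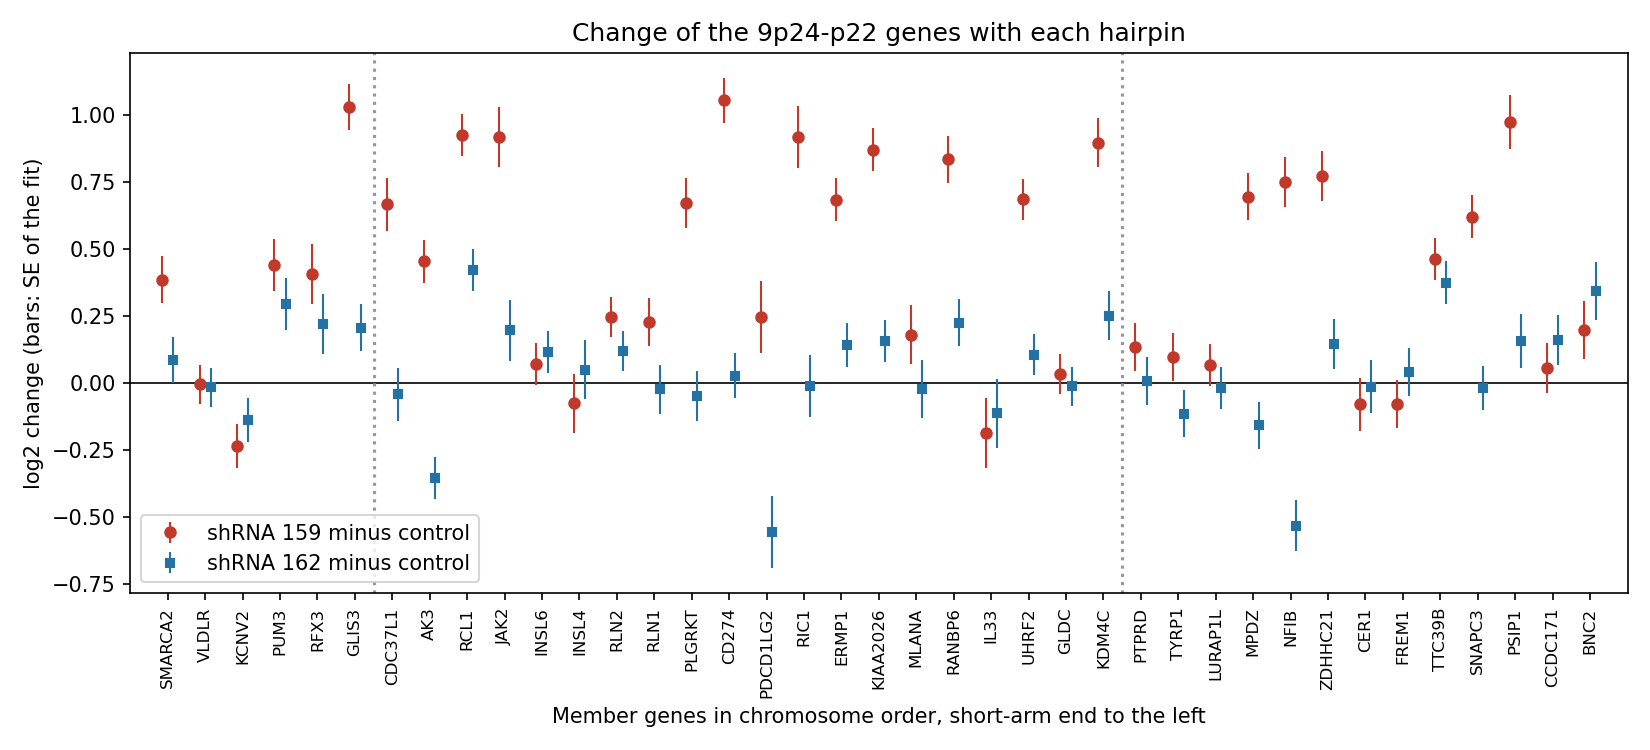
Log2 change of each of the 39 member genes with shRNA 159 minus control (red circles) and shRNA 162 minus control (blue squares), with the SE of the fit as bars, in chromosome order. Vertical dotted lines part the stretches SMARCA2 to GLIS3, CDC37L1 to KDM4C and PTPRD to BNC2. With shRNA 159, 21 genes stand at 0.4 or above beside neighbours near 0. With shRNA 162 most lie near 0, while RCL1 and TTC39B lie farthest above it and AK3, PDCD1LG2 and NFIB farthest below it.

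CD274, the PD-L1 gene, read 9.91 and 9.79 in the shRNA 159 clones, 8.89 and 8.75 in the shRNA 162 clones and 8.81 and 8.78 in the control clones. Both shRNA 159 clones stood above the other 4 arrays, where the shRNA 162 and control clones overlapped. Its change was 1.05 with shRNA 159 minus control (SE 0.08, 2.08-fold), 0.03 with shRNA 162 minus control (SE 0.08) and 1.03 with shRNA 159 minus shRNA 162 (SE 0.08, 2.04-fold).

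PDCD1LG2, the PD-L2 gene that follows CD274, did not share this pattern against control. It read 8.35 and 7.91 in the shRNA 159 clones, 7.37 and 7.28 in the shRNA 162 clones and 7.94 and 7.82 in the control clones. One shRNA 159 clone lay among the controls and both shRNA 162 clones lay below all other arrays. The changes were 0.25 with shRNA 159 (SE 0.13), -0.56 with shRNA 162 (SE 0.13, 0.68-fold) and 0.80 between the hairpins (SE 0.13, 1.74-fold).

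JAK2 read 7.64 and 7.37 in the shRNA 159 clones, 6.75 and 6.82 in the shRNA 162 clones and 6.69 and 6.48 in the control clones. Both shRNA 159 clones were above the other 4 arrays, 1.89-fold over control on average, and the shRNA 162 clones were slightly above both controls. The change was 0.92 with shRNA 159 (SE 0.11), 0.20 with shRNA 162 (SE 0.11) and 0.72 between the hairpins (SE 0.11).

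**Figure D2:**
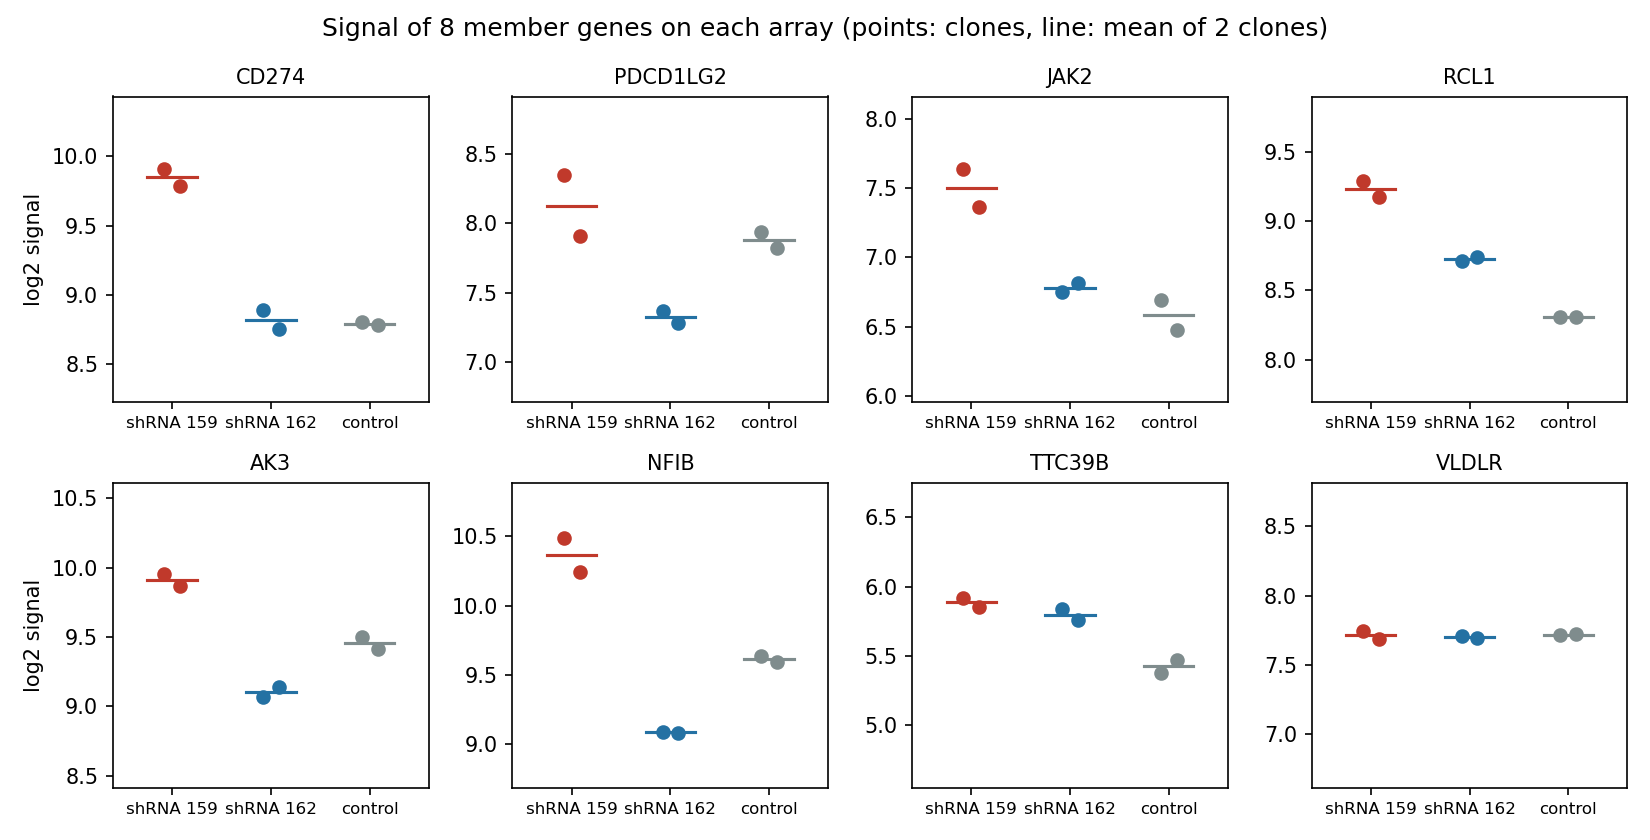
Log2 signal of 8 member genes on each array, with the shRNA 159, shRNA 162 and control clones from left to right, points for clones and a line at the mean of 2 clones. Every panel spans the same range of log2 units. CD274, JAK2 and RCL1 are highest with shRNA 159, PDCD1LG2, AK3 and NFIB are lowest with shRNA 162, TTC39B is higher with both hairpins, and VLDLR lies between 7.69 and 7.74 on all arrays.

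Between GLIS3 and CD274 several other members also stood higher with shRNA 159, although INSL6, directly beside JAK2, stood at 0.07. GLIS3, a zinc finger transcription factor, read 8.77 and 8.61 in the shRNA 159 clones, 7.87 and 7.87 in the shRNA 162 clones and 7.60 and 7.72 in the control clones. RCL1, which acts in ribosomal RNA processing, read 9.29 and 9.17 in the shRNA 159 clones, 8.71 and 8.74 in the shRNA 162 clones and 8.31 and 8.30 in the control clones. RCL1 was the one member at least 0.4 higher with shRNA 162 (0.42, SE 0.08), and its change with shRNA 159 was 0.92 (SE 0.08). CDC37L1, related to the Hsp90 co-chaperone CDC37, read 7.76 and 7.63 in the shRNA 159 clones, 7.11 and 6.86 in the shRNA 162 clones and 7.02 and 7.03 in the control clones. PLGRKT, a plasminogen receptor, read 7.78 and 7.58 in the shRNA 159 clones, 7.01 and 6.92 in the shRNA 162 clones and 6.95 and 7.07 in the control clones. Neither CDC37L1 nor PLGRKT had shRNA 162 clones apart from the controls.

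Beyond PDCD1LG2, genes that stood higher with shRNA 159 alternated with MLANA, IL33 and GLDC, which did not reach 0.4. RIC1, a subunit of the exchange factor for the trafficking GTPase RAB6, read 8.90 and 8.63 in the shRNA 159 clones, 7.89 and 7.78 in the shRNA 162 clones and 7.96 and 7.73 in the control clones. ERMP1, a metallopeptidase of the endoplasmic reticulum, read 8.28 and 8.14 in the shRNA 159 clones, 7.68 and 7.66 in the shRNA 162 clones and 7.50 and 7.55 in the control clones. For RIC1 the shRNA 162 and control clones overlapped, whereas for ERMP1 the shRNA 162 clones lay slightly above both controls. KIAA2026, a bromodomain protein, read 9.57 and 9.46 in the shRNA 159 clones, 8.76 and 8.84 in the shRNA 162 clones and 8.62 and 8.67 in the control clones. RANBP6, a relative of the importins, read 9.61 and 9.57 in the shRNA 159 clones, 8.90 and 9.07 in the shRNA 162 clones and 8.71 and 8.81 in the control clones. The changes with shRNA 159 were 0.92 for RIC1 (SE 0.12), 0.68 for ERMP1 (SE 0.08), 0.87 for KIAA2026 (SE 0.08) and 0.83 for RANBP6 (SE 0.09).

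The region holds several genes of chromatin proteins. UHRF2, a ubiquitin ligase that binds modified cytosine, read 9.58 and 9.51 in the shRNA 159 clones, 8.96 and 8.97 in the shRNA 162 clones and 8.82 and 8.90 in the control clones. KDM4C, a demethylase of histone H3 lysines, read 7.76 and 7.59 in the shRNA 159 clones, 6.95 and 7.10 in the shRNA 162 clones and 6.80 and 6.75 in the control clones. PSIP1, the chromatin tether LEDGF, read 10.57 and 10.60 in the shRNA 159 clones, 9.84 and 9.70 in the shRNA 162 clones and 9.74 and 9.49 in the control clones. All of these had both shRNA 159 clones above the other 4 arrays, with changes of 0.68 (SE 0.08), 0.89 (SE 0.09) and 0.97 (SE 0.10), and the dimmer PSIP1 row gave 0.87 (SE 0.08). SMARCA2, the ATPase of SWI/SNF remodelling complexes and the member nearest the end of the arm, had the highest change of any member below the 0.4 line, at 0.38 (SE 0.09). It read 8.74 and 8.55 in the shRNA 159 clones, 8.33 and 8.36 in the shRNA 162 clones and 8.26 and 8.25 in the control clones.

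AK3, NFIB, MPDZ and the dim TYRP1 had both shRNA 159 clones above and both shRNA 162 clones below the controls, as 2.65% of all rows did. AK3, the mitochondrial adenylate kinase that uses GTP, read 9.95 and 9.87 in the shRNA 159 clones, 9.07 and 9.14 in the shRNA 162 clones and 9.50 and 9.41 in the control clones. NFIB, a transcription factor of the nuclear factor I family, read 10.49 and 10.24 in the shRNA 159 clones, 9.09 and 9.08 in the shRNA 162 clones and 9.64 and 9.59 in the control clones. NFIB changed by 0.75 with shRNA 159 (SE 0.09) and by -0.53 with shRNA 162 (SE 0.09), so that its difference between the hairpins, 1.28 (SE 0.09, 2.43-fold), was the largest among the 39 members. AK3 changed by 0.45 and -0.35 (SE 0.08 each), a difference of 0.81 between the hairpins. MPDZ, a junction protein with many PDZ domains, read 8.99 and 8.80 in the shRNA 159 clones, 8.004 and 8.08 in the shRNA 162 clones and 8.22 and 8.18 in the control clones. The shRNA 162 clones of MPDZ were again below both controls, by a smaller margin (-0.16, SE 0.09), and the shRNA 159 clones above (0.69, SE 0.09).

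Toward BNC2, MPDZ, NFIB and ZDHHC21 stood higher side by side, as did TTC39B, SNAPC3 and PSIP1, with CER1 and FREM1 near 0 between these runs. ZDHHC21, a palmitoyltransferase, read 7.95 and 7.92 in the shRNA 159 clones, 7.19 and 7.44 in the shRNA 162 clones and 7.15 and 7.18 in the control clones. SNAPC3, a subunit of the complex that activates small nuclear RNA genes, read 10.79 and 10.70 in the shRNA 159 clones, 10.10 and 10.11 in the shRNA 162 clones and 10.18 and 10.06 in the control clones. Their changes with shRNA 159 were 0.77 (SE 0.09) and 0.62 (SE 0.08), and with shRNA 162 they were 0.14 (SE 0.09) and -0.02 (SE 0.08). TTC39B, a tetratricopeptide protein linked to HDL cholesterol, read 5.92 and 5.85 in the shRNA 159 clones, 5.84 and 5.76 in the shRNA 162 clones and 5.38 and 5.47 in the control clones. TTC39B was the one member below the lower quartile over all 6 arrays that passed. By the level without the shRNA 159 arrays, JAK2 was a dim member that passed as well. The changes of TTC39B were similar for both hairpins, 0.46 and 0.37 (SE 0.08 each), with a difference of 0.09 between them.

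At the end of the arm, PUM3, a nucleolar protein of the Pumilio family, read 9.63 and 9.51 in the shRNA 159 clones, 9.49 and 9.36 in the shRNA 162 clones and 9.23 and 9.03 in the control clones. RFX3, a transcription factor of cilia genes, read 7.27 and 6.94 in the shRNA 159 clones, 6.87 and 6.97 in the shRNA 162 clones and 6.67 and 6.73 in the control clones. Both passed the 0.4 line with shRNA 159 (0.44, SE 0.10, and 0.41, SE 0.11) without passing the fit, and the shRNA 162 clones lay between, with RFX3 overlapping. Just inside the ends of the list SMARCA2 stood at 0.38 and BNC2 at 0.20, and just outside DMRT2 stood at -0.06 and CNTLN at -0.19 with shRNA 159. BNC2, DMRT2 and CNTLN are dim rows. The next genes outward, the brighter DMRT3 and SH3GL2, stood at 0.18 and 0.05.

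With shRNA 162 the region as a whole sat near control. The median change of the 39 members was 0.04, beside 0.02 for all tested rows, and after quantile normalization it was below 0. RCL1 and TTC39B passed as higher and AK3, PDCD1LG2 and NFIB as lower, where 5.88% and 3.64% of all rows passed in those directions and 9.52% in either. The clones did not overlap in 16 members higher and 7 lower with shRNA 162, beside 33.3% and 23.3% of all rows. Each of these calls was lost without either control clone or either shRNA 162 clone (0 members in each case). The hairpin comparisons share their control clones.

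Set directly against each other, shRNA 159 exceeded shRNA 162 in 31 of 39 members, with a median difference of 0.30 beside -0.04 over all tested rows. Of the members 19 passed as higher (4.02% of all rows) and 0 as lower (4.64% of all rows; 0 members also at an unadjusted p under 0.05), with 8.65% of all rows in either direction, and 18 of the 19 had also passed against control. The differences fell into 2 sets, 19 at 0.4 or more and the rest at 0.30 or less, so the median lies at the edge of a gap. The clones of the hairpins did not overlap in 27 members higher and 4 lower, beside 19.3% and 32.6% of all rows. The control clones enter this comparison only through the shared estimate of the spread, and between 17 and 20 members passed when any 1 array was left out. In 25 of 39 members both shRNA 159 clones were above all 4 other arrays, as in 7.99% of all rows. The same held for 21 of the 40 genes from LRRC19 to CNTFR, nearer the centromere.

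The members were also read by signal level, taken over the 4 shRNA 162 and control arrays so that a high value with shRNA 159 could not place a gene, a choice made after the values were seen. Of the 25 members above the lower quartile of all tested rows on these arrays (6.78), 19 were higher by 0.4 or more with shRNA 159, with a median change of 0.68. The 14 members below it had a median of 0.11, and JAK2 and TTC39B were the ones among them that reached 0.4. Over all 6 arrays JAK2 lay above the lower quartile (6.77), through its level with shRNA 159, and 26 members did. All 12 members above the median of all rows on the 4 arrays (7.89) had a positive change, of 0.38 to 1.05. GLIS3 and RIC1 passed the corresponding median over 6 arrays only through shRNA 159. Whether the dim rows lie above background was not tested.

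**Figure D3:**
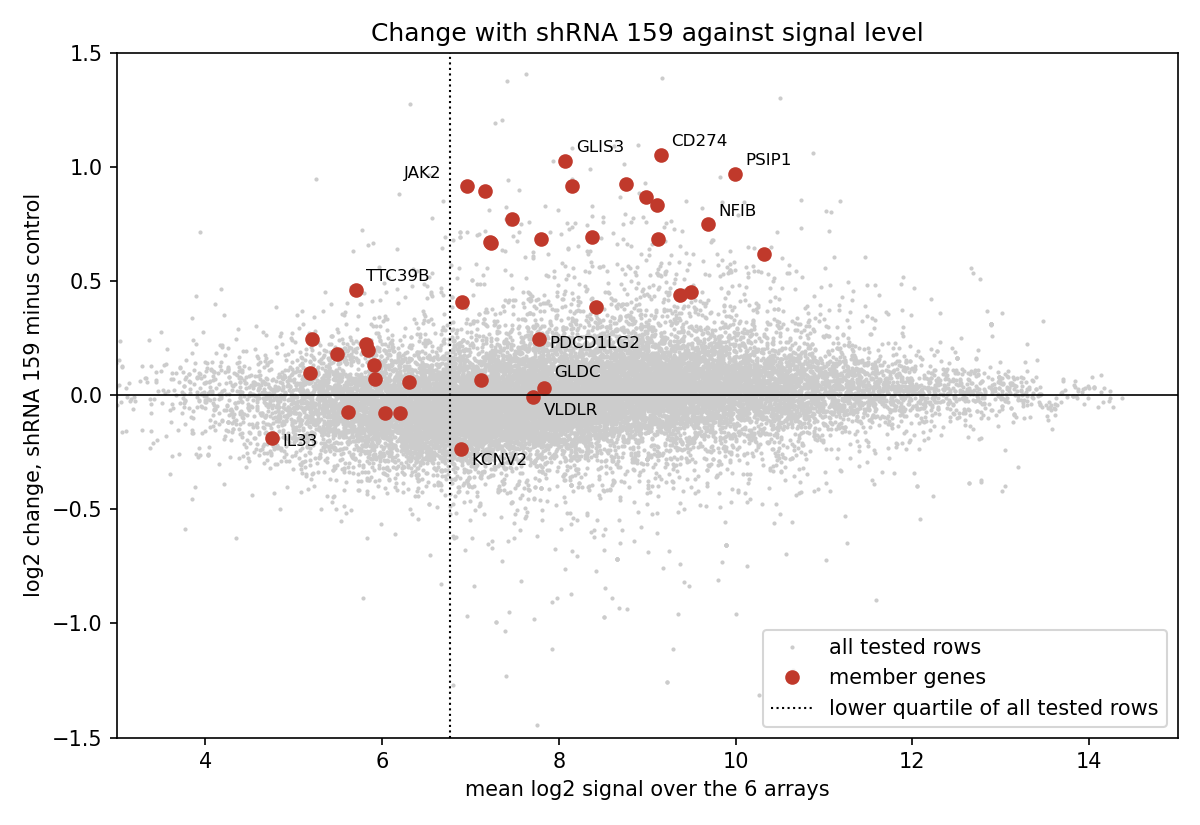
Log2 change with shRNA 159 minus control against the mean log2 signal over the 6 arrays, for the 39 members (red) and all tested rows (grey, 19 rows beyond 1.5 not drawn), with a dotted line at the lower quartile of signal. Members left of the line scatter around 0 except TTC39B, and most members right of it stand above the grey band.

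The dim members are mostly genes with a restricted pattern of use. The relaxin peptides INSL6, INSL4, RLN2 and RLN1 had mean signals between 5.21 and 5.92, and their changes with shRNA 159 ran between -0.08 and 0.25. RLN2 read 5.37 and 5.29 in the shRNA 159 clones, 5.20 and 5.21 in the shRNA 162 clones and 5.09 and 5.08 in the control clones, and RLN1 and RLN2 are close copies whose signals may mix. MLANA and TYRP1, used by pigment cells, stood at 0.18 (SE 0.11) and 0.10 (SE 0.09). IL33, an alarmin cytokine, read 4.79 and 4.54 in the shRNA 159 clones, 4.92 and 4.56 in the shRNA 162 clones and 4.84 and 4.86 in the control clones, with the shRNA 162 clones spanning the controls and the shRNA 159 clones just below both controls. PTPRD (a receptor phosphatase), CER1 (a secreted BMP antagonist), FREM1 (a basement membrane protein), CCDC171 and BNC2 (a zinc finger protein) stood at -0.08 to 0.20.

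A few brighter members did not stand higher with shRNA 159. VLDLR, a lipoprotein and reelin receptor, read 7.74 and 7.69 in the shRNA 159 clones, 7.71 and 7.69 in the shRNA 162 clones and 7.71 and 7.72 in the control clones. GLDC, the glycine decarboxylase, read 7.86 and 7.84 in the shRNA 159 clones, 7.78 and 7.83 in the shRNA 162 clones and 7.81 and 7.83 in the control clones. Their changes with shRNA 159 were -0.01 and 0.03 (SE 0.07 each), although GLDC lies directly between UHRF2 and KDM4C. LURAP1L, an adaptor protein, stood at 0.07 (SE 0.08), and KCNV2, a silent potassium channel subunit of the retina, had the lowest change of all members at -0.23 (SE 0.08), with both shRNA 159 clones below both controls.

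The promoters of the members differed in a feature that the choice of genes did not use. In the 250 bases before the first start listed for each gene in RefSeq (GRCh38.p14, 37 of 39 genes matched), the 20 matched members that were 0.4 or more higher with shRNA 159 had a median of 21 CpG dinucleotides, and 18 of them had at least 10. The other 17 members had a median of 4, and 7 of them had at least 10. Most of these 17 were dim rows, so CpG count and signal level cannot be told apart here. The brighter ones had 41 (VLDLR), 29 (SMARCA2), 19 (GLDC), 5 (LURAP1L) and 4 CpG (KCNV2). Across 35116 promoters of the same length the median was 11, and 52.2% had at least 10. The 4 sequences below show this range, 5′ to 3′ on the strand of the gene, with each CpG in capitals: RIC1 (chr9:5628857-5629106, plus strand, 32 CpG), CD274 (chr9:5450292-5450541, plus strand, 16 CpG) and JAK2 (chr9:4984140-4984389, plus strand, 8 CpG), all higher with shRNA 159, and IL33 (chr9:6214899-6215148, plus strand, 0 CpG), dim on all arrays.
RIC1: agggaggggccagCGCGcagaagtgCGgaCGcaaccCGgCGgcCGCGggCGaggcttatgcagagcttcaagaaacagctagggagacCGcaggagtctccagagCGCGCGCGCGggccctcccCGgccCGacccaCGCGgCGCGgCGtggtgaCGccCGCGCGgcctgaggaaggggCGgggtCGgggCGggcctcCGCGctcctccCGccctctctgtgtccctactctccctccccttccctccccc
CD274: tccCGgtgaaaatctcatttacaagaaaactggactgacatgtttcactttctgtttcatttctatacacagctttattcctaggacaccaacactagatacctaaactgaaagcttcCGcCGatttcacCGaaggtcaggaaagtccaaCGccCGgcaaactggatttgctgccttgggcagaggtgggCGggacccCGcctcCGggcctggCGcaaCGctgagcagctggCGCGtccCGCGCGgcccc
JAK2: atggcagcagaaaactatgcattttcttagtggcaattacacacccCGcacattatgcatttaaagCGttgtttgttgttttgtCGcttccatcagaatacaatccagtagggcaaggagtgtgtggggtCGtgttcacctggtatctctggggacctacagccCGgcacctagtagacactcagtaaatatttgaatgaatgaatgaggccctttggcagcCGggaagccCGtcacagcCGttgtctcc
IL33: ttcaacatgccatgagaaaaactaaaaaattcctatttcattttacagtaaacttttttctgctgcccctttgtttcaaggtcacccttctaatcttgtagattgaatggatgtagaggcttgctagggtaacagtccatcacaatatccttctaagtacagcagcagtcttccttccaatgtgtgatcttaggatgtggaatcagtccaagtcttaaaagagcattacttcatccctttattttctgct

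The CpG count did not set every member apart. VLDLR had the highest count, 41, and a change of -0.01, and PTPRD, CCDC171, BNC2, INSL6 and GLDC combined 19 to 36 CpG with changes between 0.03 and 0.20. All of these except VLDLR and GLDC were dim rows. JAK2 (8 CpG) and AK3 (9 CpG) were the higher members with fewer than 10.

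**Figure D4:**
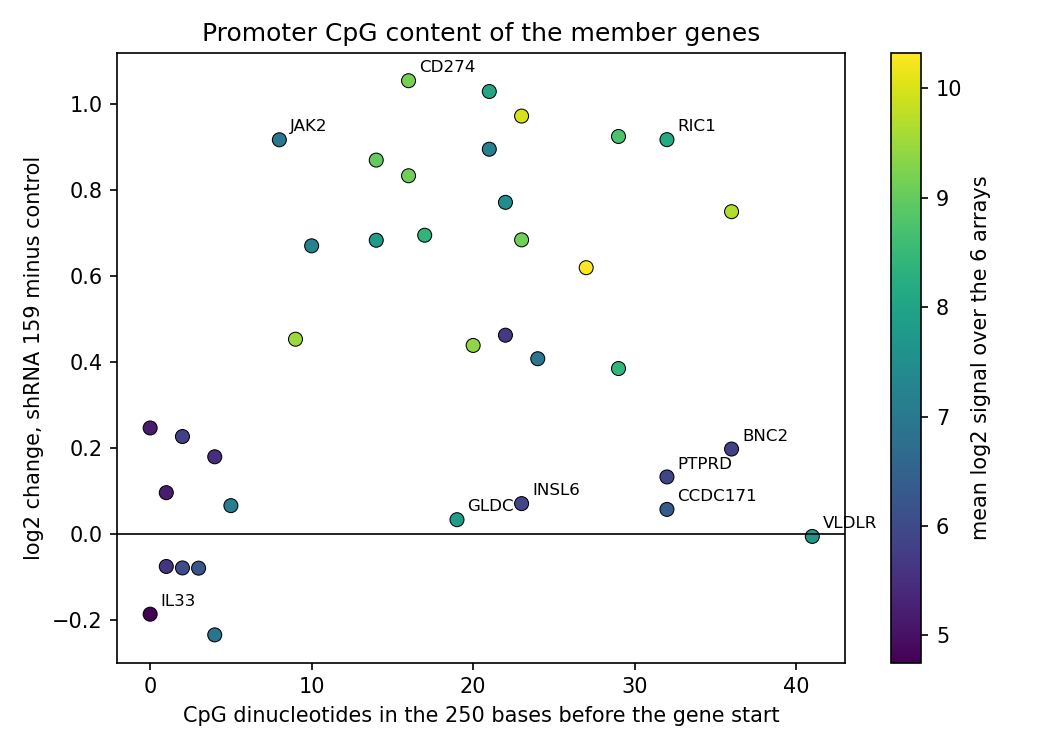
Log2 change with shRNA 159 minus control against the number of CpG dinucleotides in the 250 bases before the gene start, for 37 members, coloured by mean log2 signal. Members with 5 or fewer CpG lie below 0.25, and those with more are spread between -0.01 and 1.05.

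Few member promoters held the STAT element or the core of the interferon-stimulated response element, and few of all promoters did. With 2 of 37 members for each motif, no difference from all promoters is read. The STAT element TTCNNNGAA, which reads the same on both strands, was present in 2 of 37 member promoters, those of CD274 and TYRP1 (6.57% of all promoters). The core of the interferon-stimulated response element is GAAA, 2 bases of any kind and GAAA again, searched on both strands. It was present in CD274 (2 matches, which overlap) and NFIB, 2 of 37 members, beside 3.02% of all promoters. The GC box GGGCGG was present in 13 of the 20 members that were 0.4 or more higher and in 7 of the 17 others, beside 42.6% of all promoters. CCAAT was present in 8 and 6 (32.01% of all promoters), and TATAAA in 2 and 1 (10.7%), both strands searched. These are matches of letters and were not tested as binding sites.

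The position along the arm was compared with the genes around the members. Within the region 8 further genes had a row. PLPP6, a lipid phosphatase next to CDC37L1, was higher with shRNA 159 by 0.72 (SE 0.07). DMAC1, an assembly factor of respiratory complex I between KDM4C and PTPRD, was higher by 0.56 (SE 0.11). These 2 of the 8 passed limma as higher, where 1.69% of all rows did. The other 6, SLC1A1, SPATA6L, TPD52L3, VLDLR-AS1, GLIS3-AS1 and the row of the microRNA gene MIR101-2 within RCL1, stood at -0.19 to 0.17. Of these, SLC1A1, GLIS3-AS1 and VLDLR-AS1 had mean signals of 6.96, 6.95 and 6.81, above the lower quartile (6.77). The 5 of the 8 genes above it had a median of 0.17 and a range of 0.11 to 0.72, beside a median of 0.68 for the members above it. Toward the end of the arm the 7 flanking genes, WASHC1 to DMRT2, had a median of 0.05 with shRNA 159 and -0.08 to 0.28 as a range, and 0 passed limma in any of the 3 comparisons (1 at an unadjusted p under 0.05). The 3 of these above the lower quartile had a median of 0.18 and a range of 0.11 to 0.28.

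On the side of the centromere, the 40 genes from CNTLN to IFT74 had a median change of 0.003 with shRNA 159. The 14 among them above the lower quartile over all 6 arrays had a median of 0.04. The members above it had a median of 0.68, and also 0.68 by the level without the shRNA 159 arrays. Of these 40 genes 3 passed as higher with shRNA 159, where 1.69% of all rows did, and they were the last 3. CAAP1 rose by 0.42 (SE 0.08, limma adjusted p = 0.04) and PLAA by 0.38 (SE 0.07, limma adjusted p = 0.034). IFT74 rose by 0.61 (SE 0.13, limma adjusted p = 0.049). Between the hairpins PLAA was higher with shRNA 159 by 0.36 (limma adjusted p = 0.021), and PLIN2 changed by -0.30 (limma adjusted p = 0.049). PLIN2, a coat protein of lipid droplets, was the one gene of the flank that rose with shRNA 162, by 0.34 (SE 0.08, limma adjusted p = 0.029). Bright genes such as RPS6, a ribosomal protein with a mean signal of 12.63, stood at 0.02 with shRNA 159 (SE 0.07).

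The 40 genes after IFT74, LRRC19 to CNTFR, were looked at after these values were seen. With shRNA 159, 9 of these rose, where 1.69% of all rows did, and 0 fell. At an unadjusted p under 0.05 (limma), 21 were higher and 0 lower. The median was 0.26, and it was 0.31 for the 31 genes above the lower quartile. In 21 of the 40 genes both shRNA 159 clones were above all 4 other arrays. C9orf72 rose by 0.70 (SE 0.13, limma adjusted p = 0.028), NFX1 by 0.63 (SE 0.07, limma adjusted p = 0.004) and CHMP5 by 0.57 (SE 0.08, limma adjusted p = 0.0089). With shRNA 162 4 rose, where 5.88% of all rows did, NFX1 by 0.48 (limma adjusted p = 0.0065) among them, and the median was 0.08. Between the hairpins 6 of the 40 passed limma as higher with shRNA 159 and 0 as lower. The shares of all rows were 4.02% and 4.64%.

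**Figure D5:**
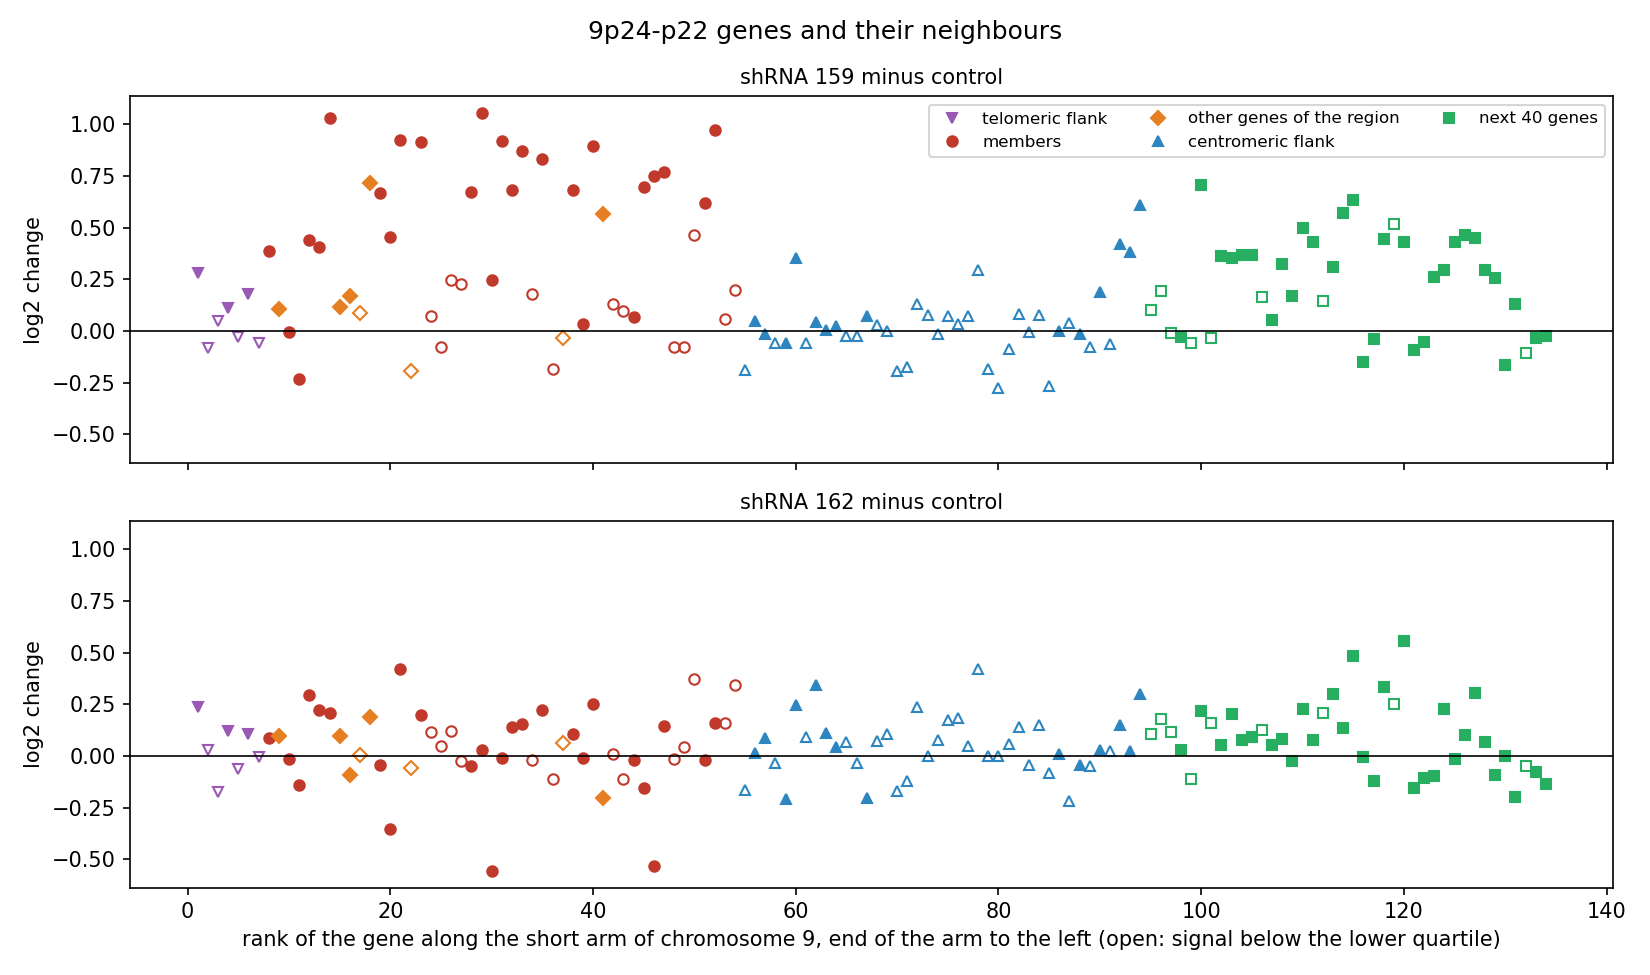
Log2 change with shRNA 159 minus control (upper panel) and shRNA 162 minus control (lower panel) of the genes along the short arm of chromosome 9, ranked from the end of the arm, with open symbols below the lower quartile of signal. With shRNA 159 the filled red symbols of the members reach 1.05, the centromeric flank lies around 0 up to its last genes, and the next 40 genes have a median of 0.26.

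By stretch, the 20 genes from CDC37L1 to KDM4C had a median change of 0.67 with shRNA 159 minus control. The 6 genes from SMARCA2 to GLIS3 had a median of 0.40 and the 13 genes from PTPRD to BNC2 a median of 0.20. These medians depend on the dim rows. By the level over the 4 shRNA 162 and control arrays, these were 7 of the 20, 0 of the 6 and 7 of the 13 genes. Without them the medians were 0.68 for CDC37L1 to KDM4C, 0.40 for SMARCA2 to GLIS3 and 0.72 for PTPRD to BNC2. This split was added after the values were seen. By the level over all 6 arrays, which JAK2 passed through shRNA 159, the median of CDC37L1 to KDM4C was 0.76 and the others were the same. With shRNA 162 minus control the medians over all genes of these stretches were 0.04, 0.15 and 0.01.

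Within the shRNA 159 group, clone 1 read above clone 2 in 29 of 39 members, with a median difference of 0.09, whereas it did so in 49.0% of all rows with a median of -0.004. Among the 19 members that passed against control, clone 1 was the higher in 18. Bright rows in general also read higher in clone 1, with medians of 0.04 and 0.05 between the median and the upper quartile of signal and above it, beside 0.12 and 0.09 for the members there. Between the lower quartile and the median the members differed from rows of like signal. All rows there had a median of -0.08, and the 12 members one of 0.14, with clone 1 the higher in 10. Below the lower quartile the medians were -0.08 for all rows and -0.07 for the members. In the shRNA 162 and control groups, clone 1 was the higher in 16 and 20 of 39 members.

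Partners of JAK2 and of the PD-1 ligands elsewhere in the genome were read from lists. Of all rows, 1.69% passed limma as higher and 0.839% as lower with shRNA 159. With shRNA 162 these shares were 5.88% and 3.64%, and between the hairpins 4.02% and 4.64%. The lists here and below are short, so nothing is read from their counts of passing genes. Of 26 JAK-STAT partners measured, 0 rose and 0 fell with shRNA 159 (limma; 4 and 1 at an unadjusted p under 0.05), with a median of -0.0007. With shRNA 162 the feedback inhibitor SOCS2 rose by 0.60 (SE 0.11, limma adjusted p = 0.012) and the SUMO ligase PIAS2 by 0.34 (limma adjusted p = 0.031), and 0 of 26 fell (4 at an unadjusted p under 0.05). STAT5A was higher with shRNA 159 than with shRNA 162 by 0.31 (limma adjusted p = 0.043).

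Of 19 receptors that signal through JAK2, CSF2RA, the alpha chain of the GM-CSF receptor, fell with both hairpins. It read 6.71 and 6.82 in the shRNA 159 clones, 7.34 and 7.32 in the shRNA 162 clones and 7.86 and 7.67 in the control clones, and its changes were -0.99 (SE 0.09, limma adjusted p = 0.0012) and -0.43 (SE 0.09, limma adjusted p = 0.022). The groups did not overlap. IL6R, the interleukin 6 receptor, rose with shRNA 162 by 0.43 (limma adjusted p = 0.014) and stood at 0.21 with shRNA 159 (limma adjusted p = 0.28).

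Of 16 genes of the PD-1 ligand axis and B7 family, 0 passed with shRNA 159 minus control (limma; 2 higher and 0 lower at an unadjusted p under 0.05). With shRNA 162, CD86, a dim row of a costimulatory ligand, rose by 0.37 (limma adjusted p = 0.049), and RGMB, a binding partner of PD-L2, fell by 0.41 (limma adjusted p = 0.027). IRF2, an interferon regulatory factor, was higher with shRNA 159 than with shRNA 162 by 0.37 (limma adjusted p = 0.029), as was RGMB by 0.50 (limma adjusted p = 0.014), while CD86 was lower by -0.43 (limma adjusted p = 0.029). CMTM6, which protects PD-L1 from breakdown, had no call.

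Of 5 genes of the IL-33 receptor and its adaptors, the co-receptor IL1RAP fell with shRNA 162 by 0.59 (SE 0.08, limma adjusted p = 0.0052) and TRAF6 by 0.41 (limma adjusted p = 0.047), and 0 passed with shRNA 159 (limma; 0 at an unadjusted p under 0.05). Of 7 relaxin peptides and receptors encoded elsewhere 0 passed in any comparison (limma; 1 with shRNA 162 minus control and 1 between the hairpins at an unadjusted p under 0.05).

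Among 42 paralogs and complex partners of the members, 1 rose and 1 fell with shRNA 159. PUM2, a relative of PUM3 on chromosome 2, rose by 0.54 (SE 0.08, limma adjusted p = 0.012), and FRAS1, which acts with FREM1 in basement membranes, fell by 0.47 with shRNA 159 (limma adjusted p = 0.013) and by 0.38 with shRNA 162 (limma adjusted p = 0.016). The median of these 42 was 0.04 with shRNA 159. With shRNA 162, SMARCA4, the other SWI/SNF ATPase, rose by 0.39 (limma adjusted p = 0.033), PTPRF by 0.42 (limma adjusted p = 0.015) and SNAPC5 by 0.39 (limma adjusted p = 0.034), while PTPRS fell by 0.42 (limma adjusted p = 0.02).

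Markers of other cell types were read in the same way. Of 7 melanocyte markers apart from MLANA and TYRP1, 0 passed in any comparison (limma; 0 at an unadjusted p under 0.05), and their mean signal per clone was 6.73 to 6.75 with shRNA 159, 6.77 to 6.86 with shRNA 162 and 6.78 to 6.85 in control. Of 7 leukocyte markers 0 passed in any comparison (limma; 1 lower with shRNA 162 and 1 lower between the hairpins at an unadjusted p under 0.05), with mean signals of 7.36 to 7.46, 7.42 to 7.46 and 7.44 to 7.46 in the same order. Of 8 fibroblast and endothelial markers PDGFRB was higher with shRNA 159 than with shRNA 162 by 0.41 (limma adjusted p = 0.018). Of 8 luminal and epithelial markers EPCAM rose with shRNA 159 by 0.94 (limma adjusted p = 0.00086), and it lies on chromosome 2.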

How the data were processed

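Per the labels, each of 6 clones gave total RNA for 1 Affymetrix Human Gene 1.0 ST array, and the authors deposited log2 signals per probe set from the Affymetrix Exon Array Computational Tool. Their background correction, normalization and summarization settings are not stated in the sources used here. The values ran between 2.29 and 14.65, from which base 2 was inferred. Arrays give no count depth, so the number of arrays limits the precision.

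The table had 33297 rows on 6 arrays, and the 21214 rows with at least 1 gene symbol in the platform's probe table were tested without further scaling. All 3 groups entered 1 model (lmFit and eBayes of limma 3.58.1, R 4.3.3, two-sided, 3 residual and 5.31 prior degrees of freedom), and p-values were adjusted over all tested rows by Benjamini and Hochberg, with passing set at under 0.05. The p-values set a difference between groups against the spread between clones, estimated over all 3 groups together. The fit was tested on simulated data. A gene with several rows is given by its row with the highest mean. Gene order came from RefSeq (GRCh38.p14). Promoters were counted in Python 3.11.15, and matplotlib 3.10.9 made the figures.

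The members and the gene lists were chosen with earlier results of these data known. Values on every array are given for CD274, PDCD1LG2, JAK2, TAX1BP3 and each member with a log2 change of at least 0.4 in any comparison (22 members), and for a few others chosen after their values were seen. Of each list and flank up to 5 passing genes are named. Alternatives were brighter rows only, all rows, quantile normalization, median centring, a variance trend, a replicate block, only the 4 arrays compared, leaving out each array, every row of a member, and members above the lower quartile.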

Additional observations from a re-analysis of the deposited data

Results flagged for a closer look

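For 4 members both shRNA 162 clones lay below and both shRNA 159 clones above both control clones, a pattern found in 2.65% of all tested rows. The difference of shRNA 159 minus shRNA 162 was 1.28 for NFIB, 0.81 for AK3, 0.85 for MPDZ and 0.21 for TYRP1 on the log2 scale. TYRP1 is a dim row, with a mean signal of 5.18. As the region was chosen with these values known, the difference in the effects of the hairpins was not tested independently.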

How the results depend on the processing

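No member named in the text that had passed changed direction under any alternative. The number of members higher with shRNA 159 minus control was 19, and 8 when all rows of the table were tested (9 to 21 without 1 array, 9 without control clone 2). The number with shRNA 162 minus control was 2 higher and 3 lower, and 0 and 0 with all rows tested (0 to 2 and 0 to 3 without 1 array). The number with shRNA 159 minus shRNA 162 stayed between 13 and 20. The median change of the members with shRNA 159 minus control was 0.44, but 0.79 among brighter rows and 0.68 among members above the lower quartile. Between the hairpins it was 0.30, but 0.76 among brighter rows, 0.64 above the lower quartile and 0.40 with every row of a member (0.28 to 0.40 without 1 array). The settings with these higher medians leave out dim members, count a gene's second row or, between the hairpins, leave out shRNA 159 clone 2 (0.40). Over all tested rows 537 passed with shRNA 159 minus control (946 of the brighter rows, 111 with all rows, 1137 with a variance trend, 142 to 512 without 1 array). With shRNA 162 minus control 2019 passed (3090, 691 and 3482, and 526 to 2416 without 1 array), and between the hairpins 1836 (593 with all rows, 3022 with a variance trend, 597 to 1352 without 1 array). After quantile normalization the shRNA 162 calls were 1081 higher and 1065 lower, against 1247 and 772. The clone numbers were no shared batch in the labels, and same-numbered clones correlated in their deviations at -0.03, -0.05 and 0.26. With the number as a replicate block 20 members were higher with shRNA 159 minus control, 3 higher and 3 lower with shRNA 162 minus control, and 19 higher between the hairpins. The precision is limited by 2 clones a group.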
